A study of Mus musculus with 2 samples.

Results

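A list of 10 Notch pathway genes, out of 23154 genes in the count tables, was followed in all 87 yolk sac PK44 cells: the receptors *Notch1* and *Notch4*, the ligands *Dll4*, *Jag1* and *Jag2*, the DNA-binding partner *Rbpj*, and the downstream genes *Hes1*, *Hey1*, *Hey2* and *Efnb2*. The genes were chosen by name but with earlier results of these data known, so the list was not blind to them. Every one of the genes had a row and counts in both libraries. The cells were the PK44 population of the yolk sac, sorted as CD31+ CD44+ Kit+ CD201+ and negative for CD41, CD43 and CD45, from E10.0 mouse embryos on a C57BL/6 background, of 1 condition with no mutant or treated arm. Cells were picked by mouth pipette and read by modified STRT-seq, which tags the transcripts of a cell with a barcode and a molecular identifier (UMI). Replicate 1 held 43 cells and replicate 2 held 44, and how many embryos stood behind each library, or whether they came from separate litters, was not given in the sources used here.

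Notch signalling is contact dependent: a Delta-like or Jagged ligand on one cell engages a receptor on its neighbour, the receptor is cleaved, and its intracellular part enters the nucleus and joins Rbpj on DNA. Genes of the Hes and Hey families are its classical direct targets and code for transcriptional repressors. In the early embryo the pathway is known for its role in arterial identity, where *Dll4*, *Hey2* and the ephrin *Efnb2* mark arterial endothelium, and for the emergence of blood cells from hemogenic endothelium, where *Runx1* is required. *Gja5* codes for the arterial gap junction protein connexin 40.

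Replicate 1 had 8932527 counts (13218 to 702028 per cell, median 141577) and replicate 2 had 12706360 (51620 to 956593 per cell, median 238898), and no cell barcode was shared between them. Levels are given as CPM, the counts of a gene over all cells of a library divided by all counts of that library and scaled to 1e6. Each transcript was counted once, from its tagged 3′ end, so levels of different genes were not divided by length. All 8 endothelial markers examined were detected in both libraries, and 7 of them had at least 10 counts in 50% of the cells or more. Of the genes of the sort, *Pecam1* (CD31) stood at 220 and 466 CPM, *Cd44* at 291 and 212, *Procr* (CD201) at 235 and 165 and *Kit* at 209 and 86.3, whereas *Ptprc* (CD45) stood at 1.57 and 3.38 CPM. Of the other negative markers of the sort, *Spn* (CD43) stood at 17.0 and 3.94 CPM, and *Itga2b* (CD41) at 65.0 and 37.8 CPM. *Itga2b* was read in 23 cells of replicate 1 and 33 of replicate 2. In all, 2 cells of replicate 1 and 1 cell of replicate 2 carried at least 100 counts of mesenchymal collagen genes. *Col1a2* was also read at a median of 4 counts in the other 41 cells of replicate 1 and 2 counts in the other 43 cells of replicate 2, so for the Notch genes a presence of 10 counts or more is given beside any count at all. That level is no clear limit either, as 5 of those 41 cells had 10 counts of *Col1a2* or more, the highest of them 74.

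Sequence upstream of 3 genes is shown, of *Hey2* because it held the letters that Rbpj binds. The Notch ligand gene *Dll4* and the ephrin gene *Efnb2* are shown as examples. Their sums were higher in *Gja5*-high cells and lower in *Runx1*-high cells of both libraries. Those of *Notch1*, *Jag1* and *Hey1* went the same ways, and their sequence is not shown. Each stretch is 200 bases from the RefSeq promoter table on GRCm38.p6, runs 5′ to 3′ along the gene, begins 250 bases before the annotated start and holds no annotated exon of that gene. Capitals mark TGGGAA, or its reverse complement TTCCCA.

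Hey2: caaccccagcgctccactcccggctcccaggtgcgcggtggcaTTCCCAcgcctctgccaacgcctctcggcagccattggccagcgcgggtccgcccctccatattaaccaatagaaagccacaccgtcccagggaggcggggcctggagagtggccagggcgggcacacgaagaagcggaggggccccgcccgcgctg

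Dll4: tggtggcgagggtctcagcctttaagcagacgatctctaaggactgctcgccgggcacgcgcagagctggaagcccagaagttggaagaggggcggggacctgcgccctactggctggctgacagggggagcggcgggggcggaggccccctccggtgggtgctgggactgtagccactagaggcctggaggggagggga

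Efnb2: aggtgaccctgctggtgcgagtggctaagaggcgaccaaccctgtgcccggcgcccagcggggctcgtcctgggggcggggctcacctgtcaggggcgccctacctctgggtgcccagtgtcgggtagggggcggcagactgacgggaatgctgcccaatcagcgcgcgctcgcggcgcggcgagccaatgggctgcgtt

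The stretches lie at chr10:30842834-30843033 on the minus strand (*Hey2*), chr2:119325534-119325733 on the plus strand (*Dll4*) and chr8:8661293-8661492 on the minus strand (*Efnb2*). The table held windows for 8 of the 10 genes. Over the full 250 bases, searched on both strands, TGGGAA was present for *Hey2*, beginning 207 bases before the start and there as part of the longer GTGGGAA on the reverse strand, and for *Rbpj*, and these letters were in no window of *Notch1*, *Notch4*, *Dll4*, *Jag1*, *Jag2* or *Efnb2*. Of all 32851 windows of this length, 21.6% held TGGGAA and 5.42% held GTGGGAA, which contains it. CACGTG, an E-box that Hes and Hey proteins can bind, was in 6.02% of all windows and in none of these.

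*Notch1* (chr2:26457903-26516663, minus strand) was the main receptor. It had 327 CPM in the first library and 250 CPM in the other, a mean of 288 ± 54.3 (SD, n = 2 libraries), which placed it second among the 10 genes. It was read in 81 of 87 cells, and in 48 of them (55.2%, exact 95% interval 44.1 to 65.9%) with at least 10 counts. The share with 10 counts or more was 39.5% in replicate 1 and 70.5% in replicate 2, and the median cell stood at 38.0 and 207 CPM. So a few strong cells carried *Notch1* in replicate 1, where the 3 cells with the most counts held 48.6% of them, whereas it was spread over most cells of replicate 2 (26.2%). Intervals on shares of cells cover counting error only. At its 3′ end *Notch1* is overlapped on the opposite strand by 2 non-coding transcripts with no row in the tables, and the strand setting of the counting is not given in the sources used here.

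*Notch4* (chr17:34564268-34588503, plus strand), the receptor best known from endothelium, stood at 72.3 and 64.9 CPM, a mean of 68.6 ± 5.23 (SD, n = 2). At least 10 counts were found in 25 of 87 cells, 7 in replicate 1 and 18 in replicate 2. The other receptors were lower, *Notch2* at 25.0 and 10.5 CPM and *Notch3* at 13.2 and 9.84 CPM.

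Among the ligands, *Dll4* (chr2:119325784-119335962, plus strand) was the highest. It stood at 77.2 and 116 CPM, a mean of 96.7 ± 27.5 (SD, n = 2), with at least 10 counts in 9 of 43 and 25 of 44 cells. *Jag1* (chr2:137081456-137116644, minus strand) was nearly equal in the libraries, at 53.4 and 50.9 CPM (52.2 ± 1.75), but the 3 cells with the most counts held 82.6% and 58.4% of them, and only 5 and 12 cells reached 10 counts. *Jag2* (chr12:112907819-112929776, minus strand) was the lowest of the 10 genes at 4.93 and 16.9 CPM (10.9 ± 8.48), and 4 of the 87 cells had 10 counts of it. In replicate 1, 39 of its 44 counts came from 1 cell. Outside the Delta-like and Jagged ligands on the list, the non-canonical ligand *Dlk1* stood at 78.1 and 7.16 CPM, *Dll1* was at 0 and 9.99 CPM, and *Dll3* and *Dlk2* had no count in any cell.

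*Rbpj* (chr5:53466152-53657362, plus strand), the DNA-binding protein through which all receptors act, was low, at 49.4 and 39.8 CPM (44.6 ± 6.75), with at least 10 counts in 21 of 87 cells. The annotation holds 2 processed pseudogenes of it, on chromosomes 4 and 6. Only uniquely mapped reads were counted, so reads that match several copies could be lost, and its level is uncertain. Its CPM went with the depth of a cell, at a Spearman's rho of 0.49 in replicate 1 and 0.36 in replicate 2, the highest of the 10 genes in each library.

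*Hes1* (chr16:30064384-30067796, plus strand) exceeded every other member. It stood at 1113 and 1175 CPM, a mean of 1144 ± 43.9 (SD, n = 2), rank 112 among all genes, and held 57.3% and 56.0% of the counts of the 10 genes together. All 87 cells had a count of it, and 73 (83.9%, exact 95% interval 74.5 to 90.9%) had at least 10. The lowest cell of each library stood at 17.0 and 12.5 CPM, and the highest at 6956 and 4675 CPM. The level therefore differed widely between cells although no cell was without a count.

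*Hey1* (chr3:8663359-8667256, minus strand) stood at 87.0 and 127 CPM (107 ± 28.0), with at least 10 counts in 7 of 43 and 21 of 44 cells. *Hey2* (chr10:30832359-30842801, minus strand) was low, at 9.29 and 19.5 CPM (14.4 ± 7.23), and was read in 12 of 87 cells, 7 of them with at least 10 counts. *Efnb2* (chr8:8617434-8661242, minus strand), which codes for the ligand ephrin-B2, stood at 149 and 240 CPM (195 ± 64.0) and was read in 78 of 87 cells, with at least 10 counts in 17 of 43 and 30 of 44.

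In order of mean level the genes ran *Hes1*, *Notch1*, *Efnb2*, *Hey1*, *Dll4*, *Notch4*, *Jag1*, *Rbpj*, *Hey2* and *Jag2*. The ranges of the 2 libraries overlapped between the neighbours *Hey1* and *Dll4* and between *Hey2* and *Jag2*, and not between the other neighbours. With 2 libraries no test of these levels was made. *Runx1* stood at 300 and 136 CPM in the libraries and *Gja5* at 126 and 615, so the libraries differed more in both of these genes than in *Hes1*, *Notch1*, *Notch4*, *Jag1* or *Rbpj*. The median cell had 6 of the 10 genes in replicate 1 and 7 in replicate 2, and 2 and 5 of them at 10 counts or more.

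**Figure D1:**
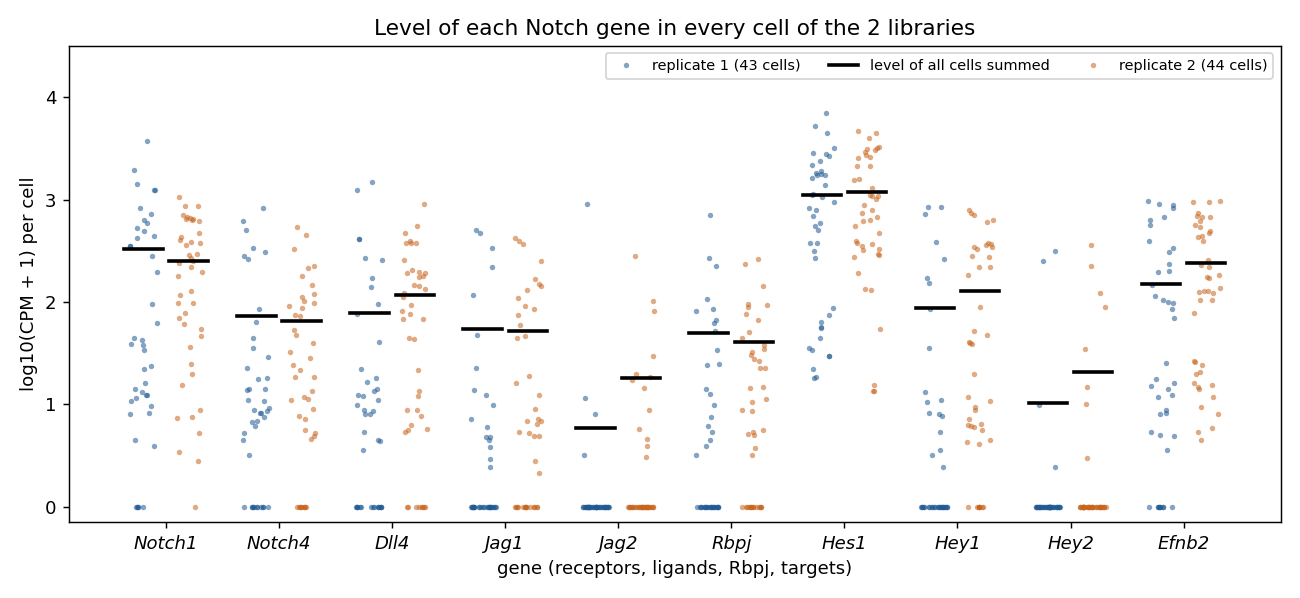
Each point is 1 cell, with the level of the gene as log10(CPM + 1) on the vertical axis, for replicate 1 (43 cells, blue) and replicate 2 (44 cells, orange); black bars mark the level of all cells of a library summed. *Hes1* has no cell at 0, whereas *Jag2* and *Hey2* lie at 0 in most cells of both libraries.

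The wider pathway was read through 54 further genes listed by role. Co-activators and co-repressors that meet at Rbpj were led by *Hdac1* (280 and 317 CPM), *Ncor1* (244 and 300 CPM) and *Snw1* (170 and 178 CPM). Receptor cleavage was represented by *Psenen*, a subunit of the gamma-secretase (164 and 171 CPM), by the protease gene *Adam10* (165 and 138 CPM) and by the gamma-secretase gene *Ncstn* (69.5 and 78.7 CPM). Of the Fringe glycosyltransferases, which tune the response to Delta-like and Jagged ligands, *Mfng* was the highest at 73.0 and 175 CPM, *Rfng* stood at 35.4 and 8.18 CPM and *Lfng* at 0.896 and 4.25 CPM. The O-glucosyltransferase gene *Poglut1* stood at 28.9 and 13.4 CPM. The role of other targets also took in further genes of the Hes family, and whether each is a Notch target in these cells was not tested. There *Nrarp*, a feedback inhibitor, stood at 70.0 and 119 CPM and was read in 74 of 87 cells. It was followed by *Hes6* at 26.3 and 50.2 CPM and *Dtx1* at 10.2 and 0 CPM, while *Heyl* had no count. Genes of ligand endocytosis were led by *Epn1* (63.4 and 92.1 CPM), *Epn2* (12.9 and 57.7 CPM) and *Mib1* (1.57 and 6.93 CPM), and those of receptor turnover by *Itch* (120 and 24.8 CPM), *Numb* (49.1 and 31.0 CPM) and *Dtx2* (57.2 and 9.99 CPM).

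To ask how the Notch genes stood against *Gja5*, the cells of each library were divided at the median of its *Gja5* CPM, and the counts of each class were summed per library. *Gja5*-high cells, as sums, held more *Notch1*, *Jag1*, *Hey1* and *Efnb2*, which passed the test once the library was a term in the fit, and no member passed without that term. Replicate 1 gave 21 *Gja5*-high cells (10.6 CPM and above) and 22 *Gja5*-low cells (10.01 CPM and below), and replicate 2 gave 22 cells on each side (148 CPM and above, 146 CPM and below). The division thus fell at very different levels, and in replicate 1 it lay among counts of 1 to 9. Classes of cells within a library share that library, so the tests used 4 sums from 2 libraries and not the cells as replicates. The test of edgeR shares its estimate of spread between genes, so a p-value does not measure a gene's own spread between the 2 libraries alone.

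*Jag1* stood at 96.3 CPM in *Gja5*-high and 10.1 CPM in *Gja5*-low cells of replicate 1, and at 92.6 and 10.8 CPM in those of replicate 2. Both high sums lay above both low sums. *Hey1* stood at 158 and 15.3 CPM in replicate 1 and at 217 and 39.7 CPM in replicate 2, and *Efnb2* at 255 and 43.4 CPM and at 379 and 106 CPM. *Notch1* differed less in replicate 1 (394 and 259 CPM) than in replicate 2 (415 and 90.8 CPM), and again both high sums lay above both low sums. *Dll4* stood at 117 and 36.9 CPM in replicate 1 and at 182 and 52.8 CPM in replicate 2. In replicate 1 a few cells carried these sums: at least 10 counts of *Jag1* were found in 4 of 21 *Gja5*-high and 1 of 22 *Gja5*-low cells, of *Hey1* in 5 and 2, of *Dll4* in 6 and 3, and of *Notch1* in 8 and 9, whereas *Efnb2* had 13 and 4. In replicate 2 the cells were 11 and 1 for *Jag1*, 17 and 4 for *Hey1*, 18 and 7 for *Dll4*, 22 and 9 for *Notch1* and 21 and 9 for *Efnb2*, of 22 in each class.

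Without a library term edgeR's quasi-likelihood test called 0 of 10653 genes (0%) at a Benjamini-Hochberg adjusted p under 0.05, while 433 genes (4.06%) had an unadjusted p under 0.05, *Dll4* (log2 change 1.73 ± 0.51, SE), *Jag1* (3.16 ± 0.66), *Hey1* (2.76 ± 0.60) and *Efnb2* (2.08 ± 0.52) among them. *Hey2* is described apart, since it passed the filter on low counts only through its *Gja5*-high cells. DESeq2 called 89 genes without the term, among them *Jag1*, *Hey1* and *Efnb2*, and also *Hey2*. With the library as a block edgeR called 86 genes higher (0.807% of those tested) and 9 lower. Of the 10 members, 4 were among the 86. By edgeR with Benjamini-Hochberg adjustment *Efnb2* was higher by 2.18 ± 0.36 on the log2 scale (adjusted p = 0.00064) and *Hey1* by 2.89 ± 0.49 (adjusted p = 0.00091). *Notch1* was higher by 1.38 ± 0.34 (edgeR, adjusted p = 0.041) and *Jag1* by 3.16 ± 0.78 (adjusted p = 0.042). The SE of *Jag1* was larger with the block than without it, while its unadjusted p in edgeR went from 0.0014 to 0.00036. With 4 sums, the blocked fit left little of a gene's own spread to measure. It leaned on the spread shared between genes, and its p-values are read with that limit. For *Dll4* the blocked log2 change of 1.71 ± 0.48 did not pass (edgeR, adjusted p = 0.11).

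*Hey2* was the most one-sided of the genes. It had 82 counts in *Gja5*-high and 1 count in *Gja5*-low cells of replicate 1, and 248 and 0 counts in those of replicate 2. Over both libraries this was 330 counts against 1, a ratio of CPM of 336 with an exact 95% counting interval of 59.9 to 13320. That interval treats the counts of a cell as independent draws, so it does not measure the spread between cells or libraries. The counts came from few cells, however, 3 and 8 *Gja5*-high cells of the libraries, and the 3 cells with the most counts held 100% and 78.2% of them. With the block *Hey2* did not pass (edgeR, adjusted p = 0.195).

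*Hes1* differed little and did not pass. It stood at 1280 and 944 CPM in *Gja5*-high and *Gja5*-low cells of replicate 1, and at 1271 and 1083 CPM in those of replicate 2, higher in both libraries, with a blocked log2 change of 0.32 ± 0.16 (edgeR, adjusted p = 0.67). *Notch4* went opposite ways, at 47.3 against 97.6 CPM in replicate 1 and 93.9 against 37.1 CPM in replicate 2. *Jag2* also went opposite ways (9.36 against 0.450 CPM and 5.62 against 27.8 CPM), and *Rbpj* stood at 50.4 against 48.3 CPM and 30.3 against 49.0 CPM. Of the 10 genes, *Notch1*, *Dll4*, *Jag1*, *Hey1*, *Hes1* and *Efnb2* were higher in *Gja5*-high cells of both libraries, as were 26.6% of all genes tested. No member was lower in both. *Hey2* was also higher in both but is left out of that list, as it passed the low-count filter only through its *Gja5*-high cells.

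Among the 54 further pathway genes, 42 were tested in the *Gja5* comparison and none was called by edgeR without or with the block. Their median log2 change with the block was 0.54, against 1.55 for the 10 members, *Hey2* included, and -0.0033 for all genes. DESeq2 called 1 of them, *Notch3* (adjusted p = 0.0059), named here after its values were seen. It had 118 and 125 counts in *Gja5*-high cells of the libraries and 0 in *Gja5*-low cells, and 2 cells of each library had 10 counts or more. As all its counts lay in *Gja5*-high cells, nothing is read from that call.

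The depth of the cells was close between the classes, with a median of 161402 counts in *Gja5*-high and 140016.5 in *Gja5*-low cells of replicate 1, and of 230499 and 246822 in those of replicate 2. Endothelial markers moved with the classes: the summed level of the 8 markers was 3392 CPM in *Gja5*-high and 1374 CPM in *Gja5*-low cells of replicate 1, and 4842 and 3484 CPM in those of replicate 2. The 6 arterial markers outside Notch, *Gja5* left out, moved further, at 1446 and 458 CPM in replicate 1 and 2903 and 487 CPM in replicate 2, while 4 venous markers summed to 199 and 117 CPM and to 106 and 317 CPM. The sum of 10 hematopoietic markers was 1147 and 1428 CPM in replicate 1 and 388 and 833 CPM in replicate 2, and that of 6 mesenchymal markers 974 and 698 CPM and 651 and 21.2 CPM. The part of the endothelial, arterial, venous and hematopoietic markers in the result was not tested. Without the 3 mesenchymal cells, with the block, *Notch1*, *Jag1*, *Hey1* and *Efnb2* were called again. With each cell thinned to 20000 counts and the block, 8 genes were called in all and none was a member, although the log2 changes stayed at 1.43 for *Notch1*, 2.34 for *Dll4*, 2.37 for *Hey1* and 1.60 for *Efnb2*. That of *Jag1* was 1.96 there, against 3.16 without thinning.

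**Figure D2:**
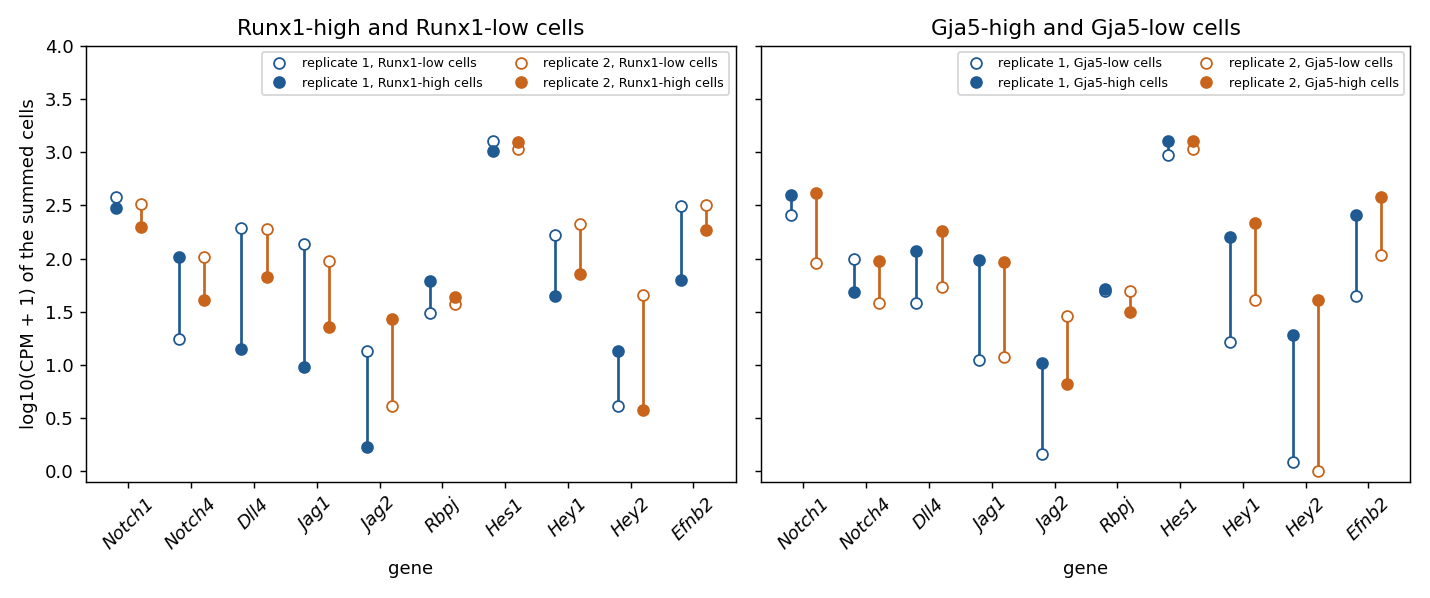
Filled points are cells high and open points cells low in *Runx1* (left) or *Gja5* (right), summed per library, with the level as log10(CPM + 1) on the vertical axis; blue is replicate 1 and orange replicate 2. For *Jag1*, *Hey1* and *Efnb2* the filled points lie above the open ones in both libraries on the right and under them on the left, whereas *Notch4* and *Jag2* point opposite ways in the libraries.

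The same cells were divided in the same way at the median of *Runx1*, the transcription factor of hemogenic endothelium. *Runx1*-high cells, summed per library, held less *Dll4*, *Jag1*, *Hey1* and *Efnb2*, which passed the test with the library as a block and not without it. This division gave 21 *Runx1*-high cells at 52.7 CPM and above and 22 *Runx1*-low cells at 52.2 CPM and below in replicate 1. In replicate 2 it gave 22 and 22 cells, at 11.2 CPM and above and 8.85 CPM and below. There the line lay among a few counts, as 17 of the 22 *Runx1*-high cells had 10 counts of *Runx1* or more and the other 5 had fewer. Both comparisons use the same 87 cells, so they are not independent of each other.

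*Dll4* stood at 13.2 CPM in *Runx1*-high and 194 CPM in *Runx1*-low cells of replicate 1, and at 66.4 and 190 CPM in those of replicate 2. *Jag1* stood at 8.51 and 135 CPM and at 21.6 and 94.6 CPM in the same order. For both ligands each high sum lay below each low sum, and the distance was wider in replicate 1. *Hey1* stood at 43.6 and 166 CPM in replicate 1 and at 71.2 and 209 CPM in replicate 2. *Efnb2* stood at 61.8 and 309 CPM in replicate 1 and at 185 and 322 CPM in replicate 2. For *Hey1* a few cells carried the sums: in replicate 1 the 3 top *Runx1*-low cells held 97.7% of its counts, the median cell was at 0 in both classes, and 4 of 21 *Runx1*-high and 3 of 22 *Runx1*-low cells had 10 counts or more. In replicate 2 the latter were 11 and 10 of 22 cells, so the share of cells with *Hey1* was not lower in *Runx1*-high cells of either library. *Dll4* reached 10 counts in 2 and 7 cells of replicate 1 and in 11 and 14 of replicate 2, *Jag1* in 1 and 4 and in 4 and 8, and *Efnb2* in 7 and 10 and in 15 and 15. Few cells carried these sums as well. The 3 top *Runx1*-low cells held 92.1% of *Jag1*, 78.1% of *Efnb2* and 64.3% of *Dll4* counts in replicate 1. In replicate 2 they held 78.3%, 41.8% and 51.9%. The median cell of replicate 1 was at 0 for *Jag1* in both classes. *Notch1* differed less, at 299 and 376 CPM and at 199 and 325 CPM, and also had each high sum below each low sum.

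Without a library term edgeR called 1 of 10629 genes (0.00941%), which was no member, and 588 genes (5.53%) had an unadjusted p under 0.05, 4 of the 10 Notch genes among them. These were *Dll4* (log2 change -2.30 ± 0.73, SE), *Jag1* (-2.97 ± 0.74), *Hey1* (-1.74 ± 0.52) and *Efnb2* (-1.39 ± 0.55). With the block edgeR called 126 genes lower (1.19% of those tested) and 40 higher, and these 4 members were among the 126. By edgeR with Benjamini-Hochberg adjustment the blocked log2 change was -2.71 ± 0.57 for *Dll4* (adjusted p = 0.00057) and -3.08 ± 0.80 for *Jag1* (adjusted p = 0.012). It was -1.59 ± 0.42 for *Efnb2* (edgeR, adjusted p = 0.015) and -1.77 ± 0.51 for *Hey1* (adjusted p = 0.037). The SE of *Jag1* was larger with the block than without it and that of *Hey1* nearly the same. Their unadjusted p in edgeR went from 0.0028 to 0.00011 (*Jag1*) and from 0.0077 to 0.00052 (*Hey1*). Here too the blocked fit leaned on the spread shared between genes, so its p-values hardly measure a gene's own spread. *Notch1* had a blocked log2 change of -0.55 ± 0.36 and did not pass (edgeR, adjusted p = 0.798). In the DESeq2 fit without the block 1 member was called, *Jag1* (adjusted p = 0.012), with *Dll4* at 0.075 and *Hey1* at 0.094.

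The remaining members showed no common direction. *Hes1* stood at 1026 and 1270 CPM in *Runx1*-high and *Runx1*-low cells of replicate 1 and at 1237 and 1082 CPM in those of replicate 2. *Notch4* had 103 against 16.7 CPM in replicate 1 and 39.6 against 103 CPM in replicate 2, *Jag2* had 0.694 against 12.6 and 26.2 against 3.14 CPM, and *Hey2* had 12.7 against 3.15 and 2.76 against 44.5 CPM. *Rbpj* stood at 60.2 against 29.6 CPM and 42.2 against 36.3 CPM, higher in *Runx1*-high cells of both libraries, and its blocked log2 change of 0.59 ± 0.96 did not pass. In all, 5 of the 10 genes were lower in *Runx1*-high cells of both libraries and 1 was higher in both, where 25.8% of all genes tested were lower in both. Among the further pathway genes, 42 were tested and none was called by edgeR, with or without the block, nor by DESeq2. Their median log2 change with the block was -0.43, against -0.81 for the members and 0.07 for all genes.

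*Runx1*-low cells were shallower, with a median of 95376 counts against 260240 in *Runx1*-high cells of replicate 1 and of 213444 against 271733.5 in those of replicate 2. With cells thinned to 20000 counts and the block, *Dll4* was still called (edgeR, log2 change -2.65, adjusted p = 0.042) and no other member was. The log2 changes of the other 3 shrank by more than 1.5 times, to -1.77 for *Jag1*, -0.81 for *Hey1* and -1.01 for *Efnb2*. Endothelial markers were lower in *Runx1*-high cells, with a sum of 1662 against 3704 CPM in replicate 1 and 3090 against 5730 CPM in replicate 2. So were 7 arterial markers outside Notch (610 against 1935 CPM and 1056 against 4120 CPM) and 4 venous markers (83.5 against 293 CPM and 104 against 376 CPM). Without *Runx1*, 9 hematopoietic markers summed to 1103 against 775 CPM and 714 against 128 CPM, and 5 myeloid markers to 213 against 52.0 CPM and 105 against 20.2 CPM. The sum of the 6 mesenchymal markers was 48.4 against 2268 CPM and 23.4 against 788 CPM. Leaving out the 3 mesenchymal cells, with the block, *Dll4*, *Jag1*, *Hey1* and *Efnb2* were called again, with log2 changes from -1.69 to -3.21. The part of the endothelial, arterial, venous, hematopoietic and myeloid markers in the result was not tested.

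**Figure D3:**
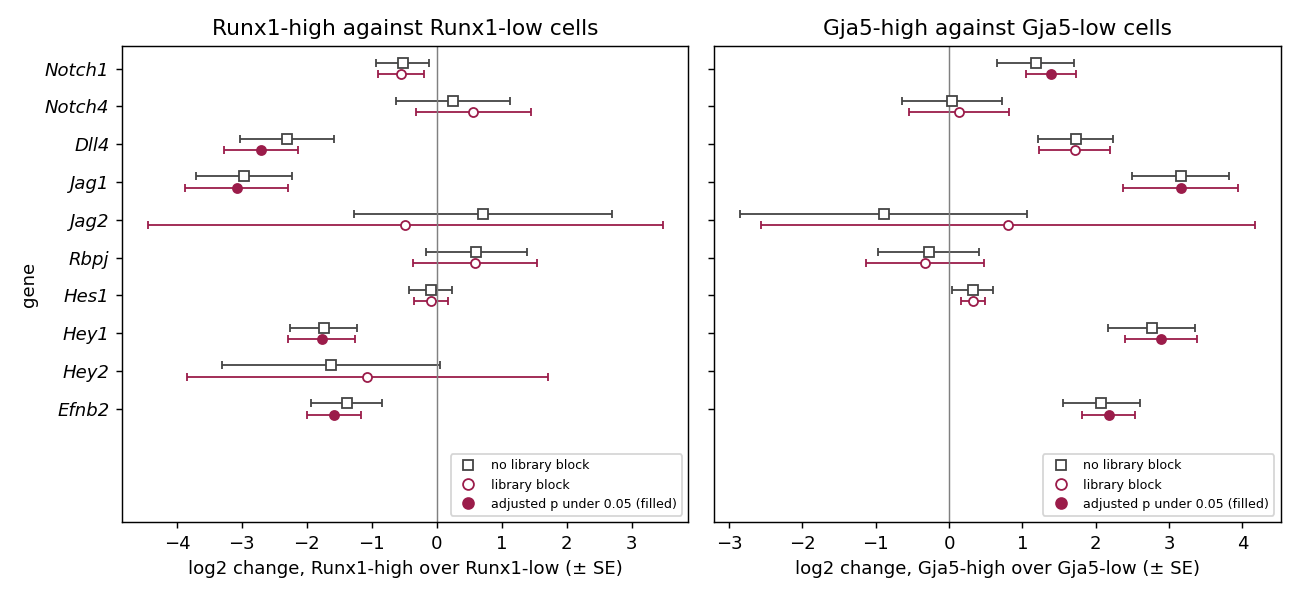
Points give the log2 change of each Notch gene between high and low cells of *Runx1* (left) and *Gja5* (right), with bars of 1 SE, from edgeR without a library term (grey squares) and with it (red circles); filled points had an adjusted p under 0.05. *Hey2* is left out on the right, where its *Gja5*-low cells had 1 count, and the 4 filled points of each side lie below 0 on the left and above 0 on the right.

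The cells that were high in *Gja5* and low in *Runx1* had the highest summed level of *Efnb2*, *Dll4*, *Jag1*, *Hey1* and *Notch1* in both libraries when the divisions were crossed. In replicate 1 this came from few cells for all but *Efnb2*: of the 11 cells, 2 had 10 counts of *Hey1*, 3 of *Jag1* and 5 each of *Dll4* and *Notch1*, against 8 for *Efnb2*. The median cell there was at 0 for *Hey1* and *Jag1*, at 11.5 CPM for *Dll4* and at 41.7 CPM for *Notch1*, where the cells low in both genes had medians of 13.0 CPM for *Dll4* and 195 CPM for *Notch1*, and the cells high in both had a median of 8.40 CPM for *Hey1*. In replicate 1 the 11 such cells had 495 CPM of *Efnb2*, against 94.4 CPM in the 10 cells high in both genes, 33.2 CPM in the 11 cells high in *Runx1* alone and 66.0 CPM in the 11 cells low in both. In replicate 2 the 13 such cells had 442 CPM, against 308, 107 and 104 CPM in the 9, 13 and 9 cells of the other classes. *Jag1* stood at 220 and 143 CPM in the *Gja5*-high *Runx1*-low cells of the libraries, where the other classes had 3.91 to 23.9 and 7.68 to 36.6 CPM. *Hey1* stood at 280 and 324 CPM there, where the other classes had 14.3 to 76.9 and 3.29 to 98.2 CPM. *Hes1* was at 1217 and 1341 CPM in these cells, and its lowest class differed between the libraries: cells high in *Runx1* alone in replicate 1 (767 CPM) and cells low in both in replicate 2 (617 CPM). These values are descriptions of 9 to 13 cells a class and were not tested.

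Receptor and ligand were read together in a smaller share of cells in replicate 1 than in replicate 2. Counting *Notch1* or *Notch4* as the receptor and *Dll4*, *Jag1* or *Jag2* as the ligand, each at 10 counts or more, both were present together in 9 of 43 cells (replicate 1) and 27 of 44 cells (replicate 2). The receptor alone was found in 10 and 7 cells, the ligand alone in 4 and 1, and neither in 20 and 9. In all, the receptor was present in 19 and 34 cells and the ligand in 13 and 28. Whether the 2 met more often than these shares would give was not tested. By class, 7 of 21 *Gja5*-high and 2 of 22 *Gja5*-low cells of replicate 1 had both, as did 20 of 22 and 7 of 22 of replicate 2. *Hey1* or *Hey2* was present as well in 17 of the 22 *Gja5*-high cells of replicate 2 and in 1 of the 22 *Gja5*-low cells. In replicate 1 the same 3-part set was found in 5 and 0 cells. Replicate 2 was the deeper library and also stood higher in *Gja5*, and the part of each in these shares was not tested.

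Across single cells, Spearman's correlation of each Notch gene with *Gja5* is given as a description, as the cells share a library and counts are sparse. In replicate 2 (44 cells) it was 0.77 for *Notch1*, 0.67 for *Dll4*, 0.66 for *Jag1*, 0.65 for *Hey1*, 0.57 for *Efnb2* and 0.54 for *Hey2*. In replicate 1 (43 cells) it was 0.10, 0.20, 0.08, 0.26, 0.46 and 0.15 for the same genes. *Efnb2* thus had the nearest values in the libraries, whereas those of the other 5 genes were much higher in replicate 2. With *Runx1*, the values lay between -0.27 and 0.34 in replicate 1 and between -0.28 and 0.28 in replicate 2. The members called lower in *Runx1*-high sums were weakly correlated with it: *Dll4* at -0.17 and -0.21, *Jag1* at -0.07 and -0.28, *Hey1* at 0.07 and -0.03 and *Efnb2* at -0.26 and -0.20. *Hes1* stood at 0.19 and 0.11 with *Gja5* and at 0.08 and 0.13 with *Runx1*.

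**Figure D4:**
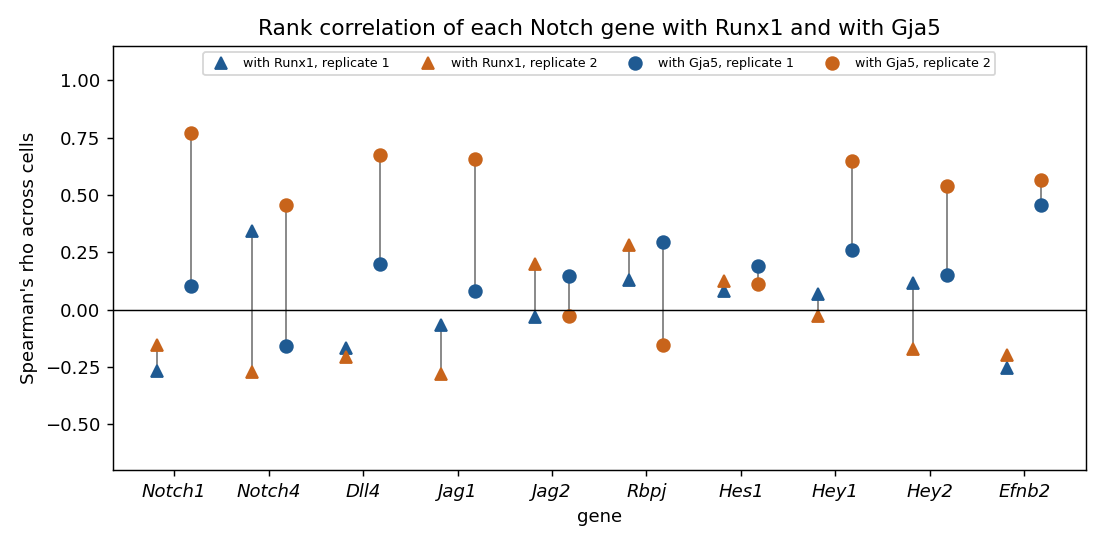
Spearman's rho across the cells of a library between each Notch gene and *Runx1* (triangles) or *Gja5* (circles), for replicate 1 (43 cells, blue) and replicate 2 (44 cells, orange), joined by a grey line. The circles of *Notch1*, *Dll4*, *Jag1* and *Hey1* lie at 0.65 or above in replicate 2 and at 0.26 or below in replicate 1.

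Among themselves the 10 genes form 45 pairs, of which 3 had a rho over 0.3 in both libraries: *Dll4* with *Jag1* (0.33 and 0.55), *Notch4* with *Hey2* (0.34 and 0.32) and *Dll4* with *Efnb2* (0.32 and 0.44). The median over all pairs was 0.12 in replicate 1 and 0.22 in replicate 2. *Notch1* and *Efnb2* were close to these, at 0.29 and 0.62, and *Jag2* had a negative rho with *Notch1* in both libraries (-0.32 and -0.17). *Rbpj* had no rho over 0.3 with another member in both libraries.

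Among the 3656 genes read in at least 50% of the cells of each library, those most like a member were ranked by the smaller of the 2 libraries' rho. *Notch1* was most like *Tuba1a* (0.60 and 0.61), which codes for an alpha-tubulin, and *Cald1* (0.53 and 0.48), which codes for the actin-binding caldesmon. *Efnb2* was most like *Col4a2* (0.54 and 0.54) and *Col4a1* (0.47 and 0.57), the 2 chains of the main collagen of basement membranes. *Dll4* was most like *Vegfc* (0.45 and 0.62) and *Nub1* (0.43 and 0.49). *Vegfc* codes for a growth factor of lymphatic endothelium and was among the arterial markers outside Notch summed above. *Notch4* was most like *Flt1* (0.35 and 0.38), a receptor for VEGF, and *Ap2a2* (0.34 and 0.33). *Hes1* had no close partner, with *Cyfip1* (0.37 and 0.37) and the immediate early gene *Fos* (0.44 and 0.34) first. The other 5 members were read in too few cells to be ranked.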

How the data were processed

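The deposited values were counts per gene and cell, without normalization. Per the study's methods and the submitters' processing notes, the authors split reads by cell barcode, aligned Read 1 to the mm10 mouse transcriptome with HISAT2 2.1.0, counted uniquely mapped reads with HTSeq, removed duplicates by UMI and left out low-quality cells. The barcode lists held no measurement and were not used here. No mitochondrial gene had a row.

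The members and gene lists were chosen with earlier results of these data known. All 87 cells entered the analysis, and doublets were not called, since cells were picked singly. Within each library the cells were divided at the median CPM of *Runx1* or *Gja5*, and counts were summed into 4 sums (2 libraries, high and low). The sums were tested by the quasi-likelihood test of edgeR 4.0.16 in R 4.3.3, after its default filter on low counts (filterByExpr) and TMM scaling, with Benjamini-Hochberg adjusted p-values over all genes tested, a threshold of 0.05 and no block. The dividing gene was left out of its own test. As the sums with the same replicate number come from the same library, they are paired. Deviations from the class means correlated between both sums of replicate 1 at 0.197 over 10629 genes (*Runx1*) and 0.202 over 10653 genes (*Gja5*), so the blocked values stand beside the others. Standard errors are the log2 change divided by the root of the F statistic. The tests were tried on simulated counts.

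Alternatives were DESeq2 1.42.0, upper-quartile size factors, no low-count filter, cells thinned to 20000 counts (which left out 1 cell of replicate 1), highest against lowest cells (the outer tertiles), cells of at least 50000 counts, leaving out mesenchymal cells and leaving out each library. Intervals on shares are 95% Clopper-Pearson intervals. Named genes were the 10 members, *Runx1*, *Gja5*, the 3 highest further pathway genes of each role, any of those that passed, and the 2 genes most like each member; *Lfng* and genes at 0 were added later. Coordinates come from GENCODE M21 on GRCm38 (mm10), where 22124 of 23154 symbols were found. Other steps used scipy 1.17.1, numpy 2.4.6, pandas 2.3.3 and matplotlib 3.10.9 under Python 3.11.15.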

Additional observations from a re-analysis of the deposited data

How the results depend on the processing

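For the *Runx1* comparison edgeR without a block called 1 gene and 0 of the 10 Notch genes. The replicate block, which pairs the sums of a library, called 166 genes with 4 members, DESeq2 136 with 1, and no low-count filter 67 with 2, while outer tertiles and leaving out mesenchymal cells called 0 genes. For the *Gja5* comparison the count was 0 genes and 0 members without a block, 95 genes and 4 members with the replicate block, 89 and 4 by DESeq2, and 50 and 3 without the low-count filter. *Hey2* was among the 4 of DESeq2, and nothing is read from its call, as nearly all its counts lay in *Gja5*-high cells. Alternatives chosen after seeing the data gave, for *Runx1*, 202 genes and 4 members with a division at 50 CPM and the block, 55 and 1 with thinned cells and the block, and 136 and 4 without mesenchymal cells and with the block. For *Gja5* they gave 126 and 4, 8 and 0, and 104 and 4, and 3 genes with the 50 CPM division and no block.

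Log2 changes of *Notch4*, *Hes1*, *Jag2*, *Rbpj* and *Hey2* changed sign under an alternative, and none was called in the comparison where it did so. In the *Runx1* comparison *Notch4* moved from 0.25 to -0.16 (thinned, classes drawn anew) and -0.17 (thinned with block), *Hes1* from -0.09 to 0.01 (upper-quartile) and 0.21 (thinned, with and without block), and *Jag2* from 0.71 to -0.48 (block), -0.13 (outer tertiles), -0.53 (50 CPM with block) and -0.62 (no mesenchymal cells, with block). In the *Gja5* comparison *Notch4* moved from 0.04 to -0.60 and -0.84 (thinned, classes kept and drawn anew), -0.03 (cells of at least 50000 counts) and -0.47 (thinned with block), *Rbpj* from -0.28 to 0.17 (thinned) and 0.51 (outer tertiles), and *Jag2* from -0.89 to 0.80 (block), 0.49 (50 CPM), 2.35 (50 CPM with block) and 0.85 (no mesenchymal cells, with block). The cause was not tested. With 1 library left out no test was possible, and *Hey2* (*Runx1*) was 1.97 in replicate 1 alone and -4.00 in replicate 2 alone, against -1.62. Other log2 changes with 1 library alone were -1.52 to -3.90 for *Dll4*, -2.13 to -4.02 for *Jag1*, -1.55 to -1.96 for *Hey1* and -0.80 to -2.35 for *Efnb2* (*Runx1*), and 0.56 to 2.20 for *Notch1*, 3.10 to 3.20 for *Jag1*, 2.45 to 3.32 for *Hey1* and 1.84 to 2.51 for *Efnb2* (*Gja5*). Mean levels moved by more than the SD of the 2 libraries in 7 alternatives, all of them thinned cells or per-cell means. With 1 library alone a level cannot pass that SD, so nothing is read from it there. The 4 sums and the few cells that hold most counts of *Jag1*, *Jag2* and *Hey2* limit what these tests can show.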
